A study of Rattus norvegicus with 20 samples.

Results

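The vessel-associated miRNAs mir-126a, mir-126b, mir-221 and mir-222 were described across rat tissues and serum. Their precursors (rno-mir-126a, rno-mir-126b, rno-mir-221 and rno-mir-222) were taken by name from the miRBase precursor list, 4 of 444 precursors, together with their 6 mature arms among 577 mature miRNAs. A precursor is the hairpin that is cut into a 5p arm and a 3p arm, and reads were counted for the hairpin and for each arm separately. Small RNA had been sequenced from male Long Evans rats at postnatal day 35 that received no treatment, a cohort of 3 rats for all tissues and serum. The 20 libraries comprised 3 brain hemispheres run singly, 3 serum libraries run singly, and 14 pools of RNA from 3 rats, each from another tissue and sequenced as 1 library. The pools were fat from under the abdominal skin, heart, kidney, large intestine, liver, lung, hindlimb skeletal muscle, pancreas, skin, small intestine, spleen, stomach, testes and thymus.

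mir-126 is the classical miRNA of endothelial cells, which line blood vessels, and it lies in an intron of Egfl7, a gene of the same cells, in mammals. It is known for keeping vessels intact and for sustaining signalling by vascular growth factors. mir-221 and mir-222 are neighbours on the X chromosome and are transcribed together. They share their seed, the stretch by which a miRNA recognises its targets, and are known to repress the growth factor receptor Kit and the cell cycle inhibitor p27 in endothelium, smooth muscle and tumours. None of those target genes was measured here.

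The sequences show which members can share targets and which can share reads. They come from the RefSeq annotation of the GRCr8 assembly, in which all 6 listed arms were found by name. Each is written from its first base to its last, and the capitals mark the seed, bases 2 to 8.
miR-126a-5p: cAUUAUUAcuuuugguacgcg
miR-126a-3p: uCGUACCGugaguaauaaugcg
miR-126b: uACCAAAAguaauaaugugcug
miR-221-3p: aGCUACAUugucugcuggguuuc
miR-222-3p: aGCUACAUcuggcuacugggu
Of 693 mature names in that table, the seed GCUACAU was held by miR-221-3p and miR-222-3p alone, and each seed of miR-126a by that arm alone. The first 8 bases of miR-221-3p and miR-222-3p were identical. Compared position by position from the first base, without gaps, 11 of 21 positions were identical. Bases that would match after a shift are not counted in that number. Past the seed the pair can therefore be told apart by sequence. In length, miR-221-3p had 23 bases and miR-222-3p 21.

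The hairpins of the pair are shown with both arms in capitals, because the pair differed in how many hairpin reads were listed under the arms. In GRCr8 mir-222 lies at chrX:6022621-6022723 and mir-221 at chrX:6023182-6023290, both on the plus strand and 458 bases apart. The RefSeq gene table places both within the long non-coding genes LOC120099382 and LOC120099384.
mir-221 hairpin: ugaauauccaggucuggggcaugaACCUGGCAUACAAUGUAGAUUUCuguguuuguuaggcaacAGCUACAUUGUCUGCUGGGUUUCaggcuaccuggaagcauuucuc
mir-222 hairpin: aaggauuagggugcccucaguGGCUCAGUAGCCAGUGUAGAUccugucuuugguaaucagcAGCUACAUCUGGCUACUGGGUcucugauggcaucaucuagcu
The arms of miR-126a lie at chr3:29813182-29813202 (5p) and chr3:29813219-29813240 (3p) on the plus strand, within Egfl7, which is on the same strand. Whether they are in an exon or an intron there was not read from that table. mir-126b is cut from the opposite strand of the same place. Its mature form, at chr3:29813177-29813198 on the minus strand, overlaps miR-126a-5p by 17 bases.

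Reads on precursors numbered 388275 to 1204552 in the brain libraries, 162080 to 3685761 in the pools and 7556 to 10862 in serum. Levels are given as RPM, each count divided by the library's total in the same list and scaled to 1000000 reads, so they are shares of each library's miRNA. In bulk tissue, fewer cells of a type and less RNA per cell cannot be told apart. A level of 3 reads, taken as the smallest that can be shown, was 0.814 to 18.5 RPM in the tissue libraries and 276 to 397 RPM in single serum libraries. Intervals are 95% Wilson intervals unless another is named, and they cover counting error only. In the stomach pool mir-143, a smooth muscle miRNA, took 61.2% of all precursor reads, which lowers the share left for every other miRNA there. In the library labelled pancreas the hepatocyte miRNA mir-122 reached 14862 RPM, while liver had 14726 RPM, and the acinar miRNAs mir-216a and mir-217 had 0 reads. Its profile correlated with that of liver at r = 0.969 over 295 precursors, against 0.875 with the next tissue, so its label is not borne out by these markers. The neuronal miRNAs mir-124 and mir-9a summed to 35902 to 43900 RPM in the hemispheres and to at most 154 RPM in any pool.

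mir-126a was by far the most abundant member and was highest in heart. It stood at 42495 RPM in heart (95% interval 41977 to 43019), 32972 RPM in lung, 26437 RPM in the library labelled pancreas, 22419 RPM in liver and 17853 RPM in kidney. Fat, at 13198 RPM, spleen, at 12206 RPM, and skeletal muscle, at 12057 RPM, held the middle of the order. Skin followed at 7506 RPM. The brain hemispheres had 6984, 6847 and 4633 RPM, a mean of 6155 ± 1319 (SD, n = 3). Stomach had 3815 RPM, small intestine 3778 RPM, large intestine 3101 RPM, thymus 2888 RPM and testes 2289 RPM (2068 to 2534). Heart was thus 18.6-fold above testes. Of the 14 pairs of neighbours in this order, 11 had intervals that did not overlap, with the SD taken for brain, and spleen with skeletal muscle, skin with brain and stomach with small intestine did overlap. Since a pool is a single library, these gaps exceed counting error but have no replicate check.

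mir-126b, the antisense copy, was practically without reads. Its count reached 1 read in 1 library only, lung, at 2.63 estimated reads or 1.10 RPM, where mir-126a had 78860 reads. It was not tested further. The deposited RefSeq list holds a single entry, Mir126, whose counts equalled those of mir-126a in 20 of 20 libraries. Whether the authors' counting used the strand is not given in the sources used here, so reads of the opposite strand cannot be told apart from these counts.

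mir-221 and mir-222 had a different order, with brain first, and were scarcer. mir-126a had 2.72 to 4.14 times the summed reads of the pair in the hemispheres, 4.08 times in testes, 33.0 times in lung and 288 times in heart. mir-221 was at 589, 671 and 600.1 RPM in the hemispheres, a mean of 620 ± 44.7 RPM (SD, n = 3). The pools reached 398 RPM in lung (374 to 425), 308 RPM in skin, 216 RPM in testes, 167 RPM in stomach and 159 RPM in spleen. Fat, heart, kidney, large intestine, skeletal muscle, thymus, small intestine and liver lay between 94.0 and 27.4 RPM. The lowest level, 19.8 RPM in the library labelled pancreas, rested on 4 reads.

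mir-222 was also highest in brain and lung. The hemispheres were at 1213, 983 and 1102 RPM, a mean of 1099 ± 115 RPM (SD, n = 3). Lung was again the highest pool at 600 RPM (570 to 632), then skin at 482 RPM and testes at 346 RPM. Spleen, stomach, kidney and fat lay between 178 and 116 RPM, and the remaining pools between 91.3 RPM in skeletal muscle and 19.8 RPM in the library labelled pancreas. Brain was 8.93 times the tissue median for mir-221 and 9.44 times for mir-222 by RPM, 4.46 and 5.30 times with TMM-scaled totals, and 2.53 and 2.64 times with the size factors of DESeq2. Heart, which led the order for mir-126a, was at 69.4 RPM for mir-221 and 78.1 RPM for mir-222, at or under their medians. Below skin the intervals of most neighbours overlapped: in all, 12 of 14 pairs of neighbours overlapped for mir-221 and 11 of 14 for mir-222, so the order of the lower tissues is not resolved.

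**Figure D1:**
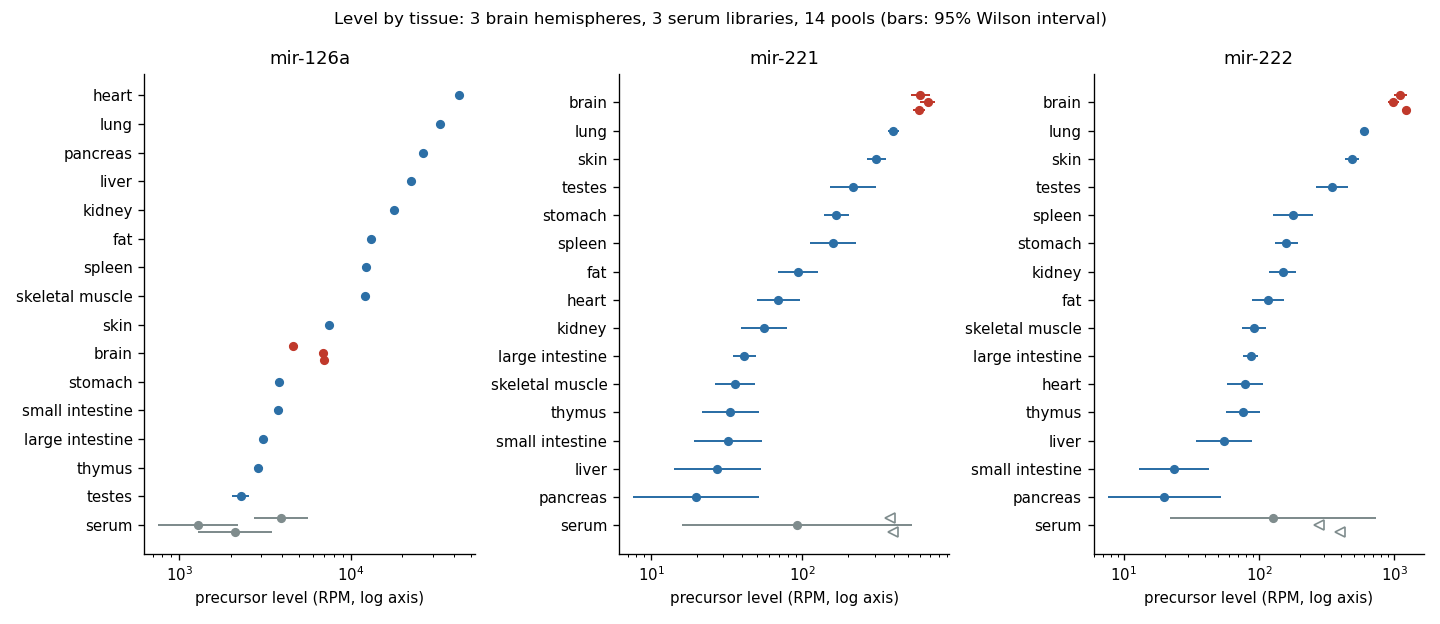
Precursor levels of mir-126a, mir-221 and mir-222 in RPM on log axes, by tissue, with a point for each library (red brain hemispheres, blue pools, grey serum) and bars for the 95% Wilson interval. Open triangles mark serum libraries with 0 reads, drawn at the level of 3 reads. Heart leads for mir-126a at 42495 RPM, while brain leads for mir-221 and mir-222 at means of 620 and 1099 RPM.

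By RPM each hemisphere was above each of the 14 pools for mir-221 and mir-222. This was a common pattern, shown by 107 of the 295 precursors that had 10 or more counts in 3 or more libraries, or 36.3%, and so it does not single out the pair. The choice of scaling moved it. With TMM, a scaling that trims the most different miRNAs, stomach, at 362 TMM-scaled RPM, was above the lowest hemisphere for mir-221, at 318, whereas mir-222 stayed above all pools. With the size factors of DESeq2, 3 pools were above each hemisphere for mir-221 and 1 for mir-222, in both cases led by lung. These scalings shifted all brain levels together, by a median of −0.67 and −1.85 on the log2 scale. Without mir-143 in the totals, stomach rose to 431.5 RPM of mir-221 and 409 RPM of mir-222, and brain stayed highest. For mir-126a, 9 pools were above all hemispheres and 5 below by RPM, but 12 were above and 1 below with TMM, and 13 above and 0 below with the size factors of DESeq2. Heart was highest under each scaling but TMM, where the library labelled pancreas led at 52569 against 50391 in heart.

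Brain was set against the 14 pools, taken as 1 group, in edgeR's quasi-likelihood model with TMM scaling, so that the spread between tissues formed the error. mir-126a was lower in brain, with a log2 fold change of −2.30 ± 0.88 (SE; edgeR adjusted p = 0.044). mir-222 was higher, at 1.65 ± 0.65 (SE; edgeR adjusted p = 0.049). mir-221, at 1.36 ± 0.69 (SE; edgeR adjusted p = 0.107), missed the threshold of 0.05. Among the 295 precursors tested (those past the same count minimum), 18.6% were called lower and 24.1% higher in brain, with a median log2 fold change of 0.17. That median was itself −0.44 with DESeq2, 0.44 with RLE and 1.19 with library totals, so the scalings move all values together. The balance of calls moved with it, to 123 higher and 24 lower with library totals and 68 higher and 119 lower with DESeq2, against 71 and 55. The calls of mir-126a and mir-222 were both close to the threshold and were lost in other fits. With library totals alone mir-126a was at −1.24 (adjusted p = 0.220 from edgeR) and with RLE, the size factors of DESeq2's method used within edgeR, at −2.08 (adjusted p = 0.055), while DESeq2 gave mir-222 1.00 (adjusted p = 0.164). The hemispheres are 1 tissue entered as 3 libraries, so these p-values can be too small. Neither call remained when any single hemisphere was left out. The call of mir-126a was also lost without fat, kidney or lung (adjusted p = 0.051, 0.055 and 0.05003 from edgeR). That of mir-222 was also lost without fat, heart, kidney, large intestine, liver, small intestine, spleen or thymus, with an adjusted p of up to 0.066. With library totals alone mir-221 passed, at 2.38 (adjusted p = 0.012 from edgeR), and with RLE at 1.70 (adjusted p = 0.032). Without the pools labelled pancreas and stomach, left out together after the data were seen, mir-126a was at −2.28, mir-221 at 1.45 and mir-222 at 1.63, and no call changed.

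Of the mature arms, miR-126a-3p and miR-126a-5p were lower in brain than in the pools, at −2.79 ± 0.85 (SE; edgeR adjusted p = 0.014) and −2.52 ± 0.88 (SE; edgeR adjusted p = 0.028). Of 290 mature miRNAs tested, 24.1% were called lower and 20% higher in brain, with a median of −0.28. These 58 higher and 70 lower calls became 88 and 29 with library totals, 79 and 43 with RLE and 67 and 101 with DESeq2. miR-221-3p was at 0.88 (adjusted p = 0.318 from edgeR) and miR-221-5p at 1.35 (adjusted p = 0.113), and neither was called. With library totals both passed, at 1.97 (adjusted p = 0.047 from edgeR) and 2.46 (adjusted p = 0.017). miR-221-5p also passed with RLE, at 2.04 (adjusted p = 0.019 from edgeR), and without skeletal muscle, at 1.69 (adjusted p = 0.018). This arm had only 12, 12 and 6 reads in the hemispheres, 15 in lung and at most 4 in any other pool. It met the count minimum only through brain 1, brain 2 and lung, so its values rest on few reads. Both arms of miR-126a lost their call with library totals alone (−1.76 and −1.45) and without any single hemisphere. The 5p arm also lost it with RLE, with either other count minimum, and without fat, skeletal muscle or skin.

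**Figure D2:**
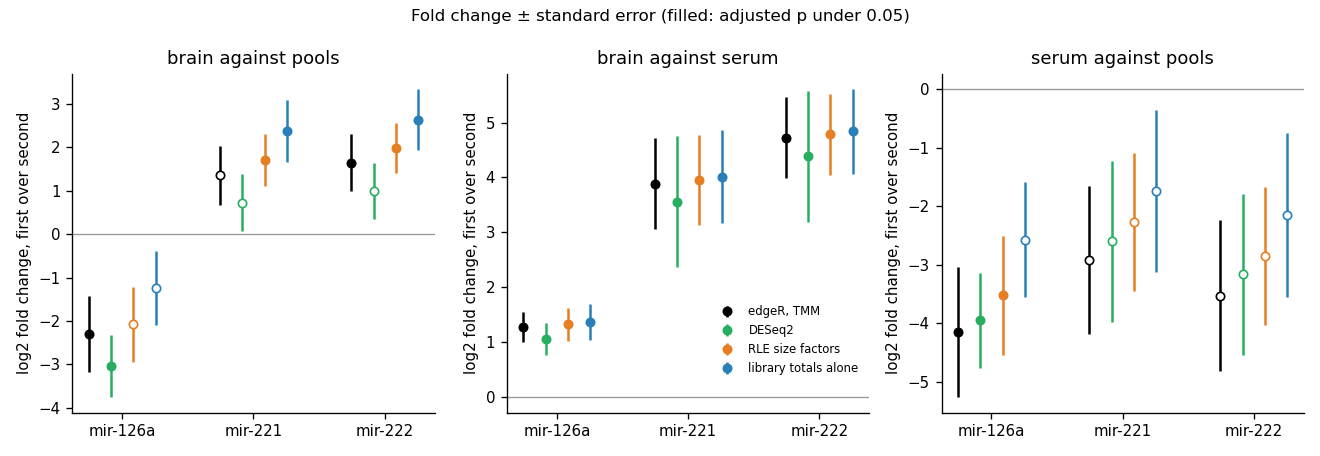
Log2 fold changes with standard errors of the 3 precursors in the 3 comparisons, under edgeR with TMM, DESeq2, edgeR with RLE size factors and edgeR with library totals alone. Filled points have an adjusted p under 0.05. Against the pools the values differ with the scaling, for mir-126a from −1.24 with library totals to −3.04 with DESeq2. For brain against serum, where mir-221 and mir-222 had 1 serum read each and had to differ, the 4 settings of mir-126a lie between 1.05 and 1.37.

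The profile of mir-221 was most like that of mir-222, with Pearson's r of 0.94 between log2 levels over 15 tissues, and mir-221 was also the closest of 294 other precursors to mir-222. This correlation describes 15 tissues that differ in depth and was not tested. It was 0.89 with TMM-scaled totals. The next closest to mir-221 were mir-330 at 0.82 and let-7c-2 at 0.82, and to mir-222 mir-103-1 at 0.83 and mir-324 at 0.82. mir-126a correlated with mir-221 at −0.10 and with mir-222 at −0.11, and at −0.45 and −0.44 with TMM-scaled totals. The precursors most like mir-126a were mir-22, mir-30a and let-7f-2, at 0.78, 0.72 and 0.71.

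Within a library the ratio of mir-222 to mir-221 does not depend on the scaling. mir-222 had more reads than mir-221 in 14 of 17 tissue libraries. The hemispheres had 1461 against 709 reads, 561 against 383 and 428 against 233, so mir-222 was 2.06, 1.46 and 1.84 times mir-221. Lung had 1435 against 953 reads, a ratio of 1.51, and skin 363 against 232, a ratio of 1.56. The highest ratios were 2.68 in kidney and 2.56 in skeletal muscle. The ratio was 0.947 in stomach, 0.733 in small intestine and 1.00 in the library labelled pancreas, where each had 4 reads. As a share of the pair, mir-222 was 72.8% in kidney (exact binomial 95% interval 64.1 to 80.4) and 48.6% in stomach (42.4 to 54.9), which do not overlap. The mean log2 ratio was 0.82 ± 0.25 in brain (SD, n = 3) and 0.58 ± 0.58 in the pools (SD, n = 14), a difference smaller than the spread between pools (exact permutation test, two-sided, p = 0.494, adjusted p = 0.741 over 6 tests). Serum held too few reads for a ratio.

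**Figure D3:**
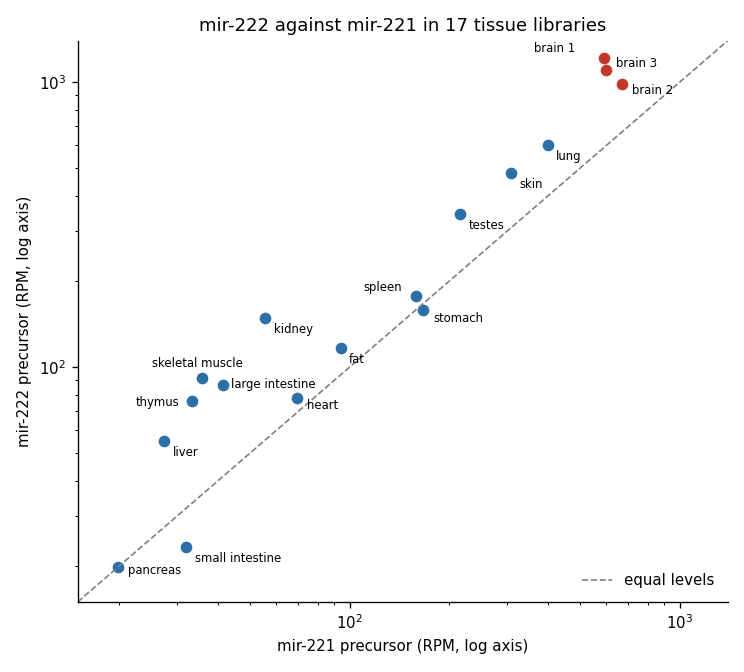
Level of mir-222 against that of mir-221 in RPM on log axes for 17 tissue libraries (red brain hemispheres, blue pools), with a dashed line where both are equal. Of the 17 points 14 lie above the line, and small intestine and stomach lie below it.

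The mature list gave another picture of mir-222. In the hemispheres 1461, 561 and 428 reads were counted on the mir-222 precursor, but 21, 6 and 4 on miR-222-3p and 0 on miR-222-5p. Over the 17 tissue libraries, the arms held 50 of 5179 precursor reads, or 0.965%. For mir-221 the arms held 78.7% of 3079 precursor reads, with 64.7% in the lowest tissue library and 94.3% in the highest. For mir-126a they held 90.6% of 189467. Among 126 precursors taken as single-copy from their names, with at least 1000 tissue reads, the median share was 77.9%. mir-222 was the 4th lowest, among 8 precursors under 5%. The share was 532% for let-7d and 100.6% for mir-3553, so arm counts in this set are not always a part of the precursor count. The reads left out of the arms were therefore nearly all of mir-222 and a minority for the other members.

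The annotated miR-222-3p is 2 bases shorter than miR-221-3p, and the mir-222 hairpin printed above goes on after it with the bases cu. Across the 126 precursors, the median share was 64.3% for main arms annotated with 21 bases (26 precursors) and 80.1% with 22 bases (60 precursors). With 23 bases it was 87.8% (21 precursors). Shares under 5% occurred at 20 bases (1 precursor), 21 (3), 22 (3) and 23 (1). The main arm of mir-126a, miR-126a-5p, has 21 bases, and the arms of mir-126a held 90.6%. Read lengths were not analysed here, and the part of the annotated arm end in these counts was not tested. Taken from the mature list, the log2 ratio of miR-222-3p to miR-221-3p in brain was −5.15 ± 0.47 (SD, n = 3), against 0.82 on precursors, so the sign reversed. The mature counts of miR-222 are therefore not used here as its level.

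**Figure D4:**
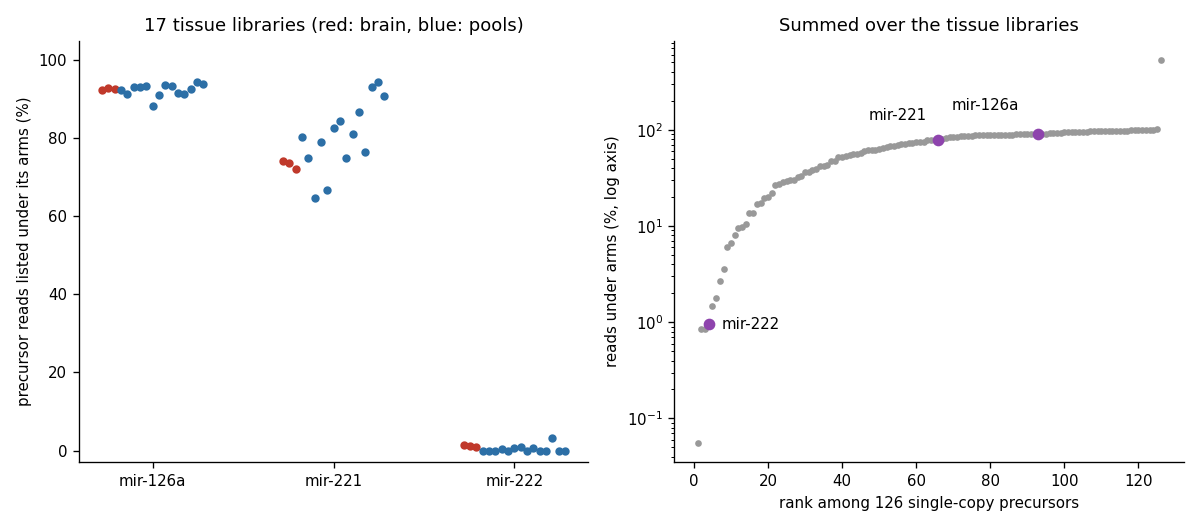
Left, the percent of precursor reads that the mature list holds under both arms, for mir-126a, mir-221 and mir-222, with a point for each of the 17 tissue libraries. Right, the same share summed over those libraries for 126 precursors taken as single-copy from their names, in rank order on a log axis. The highest share is 532%. mir-222 stands at 0.965%, the 4th lowest, while mir-221 and mir-126a stand at 78.7% and 90.6%.

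Of the arms of miR-126a, the 5p arm had more reads than the 3p arm in 17 of 17 tissue libraries. The 3p arm, the better-known regulator in endothelium, made up 10.99%, 11.7% and 14.03% of the arm reads in the hemispheres, a mean of 12.2% ± 1.60 (SD, n = 3). In the pools it ranged from 9.53% in the library labelled pancreas through a median of 14.4% to 21.4% in spleen (exact binomial 95% interval 19.8 to 23.1). Skeletal muscle, at 20.7%, and lung, at 19.5%, were near spleen, and liver, at 10.2%, was near the low end. Brain did not differ from the pools beyond their spread (exact permutation test, two-sided, p = 0.226, adjusted p = 0.453). For mir-221 the 3p arm dominated instead, with 97.7%, 95.7% and 96.4% in the hemispheres and 83.3% to 100% in the pools (exact permutation test of brain against the pools, p = 0.706, adjusted p = 0.847). For mir-222 all 31 arm reads of the hemispheres were 3p, which is too few for a comparison.

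In serum, mir-126a had 61 reads in all, and mir-221 and mir-222 had 1 each. mir-126a had 16, 14 and 31 reads by library, or 2118, 1289 and 3909 RPM, a mean of 2439 ± 1339 RPM (SD, n = 3). Serum replicates 1 and 2 lay below all 14 pools, and replicate 3 lay below 9 of them by RPM and below all 14 with TMM. Their intervals by RPM were wide, at 1304 to 3437, 768 to 2162 and 2755 to 5543. Those of replicates 1 and 2 overlapped with that of testes (2068 to 2534), so counting error does not separate them from the lowest pool. mir-221 had 0, 1 and 0 reads and mir-222 had 0, 0 and 1. At the median level of the pools, 1.65 reads of mir-221 and 2.74 of mir-222 would have been expected in the 26348 serum reads, so a serum level like that of most pools was not detectable as different at this depth. At the brain level, 16.1 reads of mir-221 and 29.8 of mir-222 would have been expected.

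Between the replicated groups, mir-126a was higher in brain than in serum. The log2 fold change of brain over serum was 1.27 ± 0.27 for mir-126a (SE; edgeR adjusted p = 0.0013). It was 2.55 when precursors under 10 counts in any library were left out, and 2.13 to 2.45 without any single hemisphere. By RPM the lowest hemisphere, at 4633 (4425 to 4852), and the highest serum library, at 3909 (2755 to 5543), had overlapping intervals. For mir-221 and mir-222 the fitted values were 3.89 and 4.72. These 2 values rest on 1 serum read each and are no bounds. Both miRNAs passed the count minimum through their brain reads alone, so that they had to differ, and no p-value is given for them. Without the serum library that held that read the fitted values rose to 11.10 and 11.93, which depend on the prior count. By summed reads, brain was 16.1 times serum for mir-221 (exact interval 2.89 to 638) and 29.8 times for mir-222 (5.35 to 1179). Of the 235 precursors tested, 44.7% were called higher in brain, and the median log2 fold change was 2.15. mir-126a lay below that median. The share and the median include precursors that, like mir-221, passed the count minimum through their brain reads alone. Of the mature arms miR-126a-5p was at 1.42 ± 0.40 (SE; edgeR adjusted p = 0.0025), while 52.8% of 212 mature miRNAs were called higher in brain, with a median of 3.86.

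Serum was also set against the 14 pools as 1 group. mir-126a was lower in serum, at −4.15 ± 1.11 (SE; edgeR adjusted p = 0.012), while 16.9% of 236 precursors were called lower in serum and the median was −2.18. The 14 higher and 40 lower calls behind this became 28 and 13 with library totals. With library totals alone mir-126a was at −2.57 (adjusted p = 0.082 from edgeR), and it also missed the threshold without serum replicate 1 (−4.08, adjusted p = 0.065) or serum replicate 2 (−3.41, adjusted p = 0.063). mir-221, at −2.92, and mir-222, at −3.53, were not called in this fit. Both passed the count minimum through the pools alone and rest on 1 serum read each, so no p-value is given for them. mir-222 passed without serum replicate 3, which held its single serum read, or without spleen. That pass is not read as a difference. miR-126a-5p was at −3.86 ± 1.09 (SE; edgeR adjusted p = 0.015), beside 19.8% of the mature miRNAs tested called lower, and missed the threshold without serum replicate 2 (adjusted p = 0.053). The 16 higher and 44 lower mature calls became 26 and 11 with library totals, where miR-126a-5p, at −2.41, was not called (adjusted p = 0.108 from edgeR). This comparison shares the serum libraries with the one above.

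All 51 serum reads assigned to an arm of miR-126a were 5p. The 3p share was 0 of 13, 0 of 13 and 0 of 25 reads, which over all 51 allows a share of up to 5.88% (3 reads) and has an exact 95% upper bound of 6.98%. In single libraries the exact upper bounds were 24.7%, 24.7% and 13.7%, so at this depth serum replicates 1 and 2 cannot each be placed below any pool. The observed shares in serum were all 0, and the pools' mean was 15.1% ± 3.78 (SD, n = 14; exact permutation test, two-sided, p = 0.0029, the smallest this design can give, adjusted p = 0.018 over 6 tests). Against brain the smallest p that 3 libraries against 3 allow in the exact permutation test is 0.10, and that was the value. Of the 61 serum precursor reads, however, 10 lay outside both arms. If those and the unlisted reads of all libraries were counted as 3p, an alternative chosen after seeing the data, serum would reach 7.14% to 19.4% and the pools 15.3% to 28.9%, and the difference would not pass (exact permutation test, p = 0.103). For miR-126a-3p in RPM, serum was set to a floor of 3 reads over the 3 serum libraries together. Against that floor brain was 4.67-fold, the pool mean 15.8-fold and the lowest pool 2.57-fold higher. The floor lies below the 95% Wilson upper limit of 0 serum reads, so these ratios are no lower bounds. They also leave out the reads outside both arms.

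**Figure D5:**
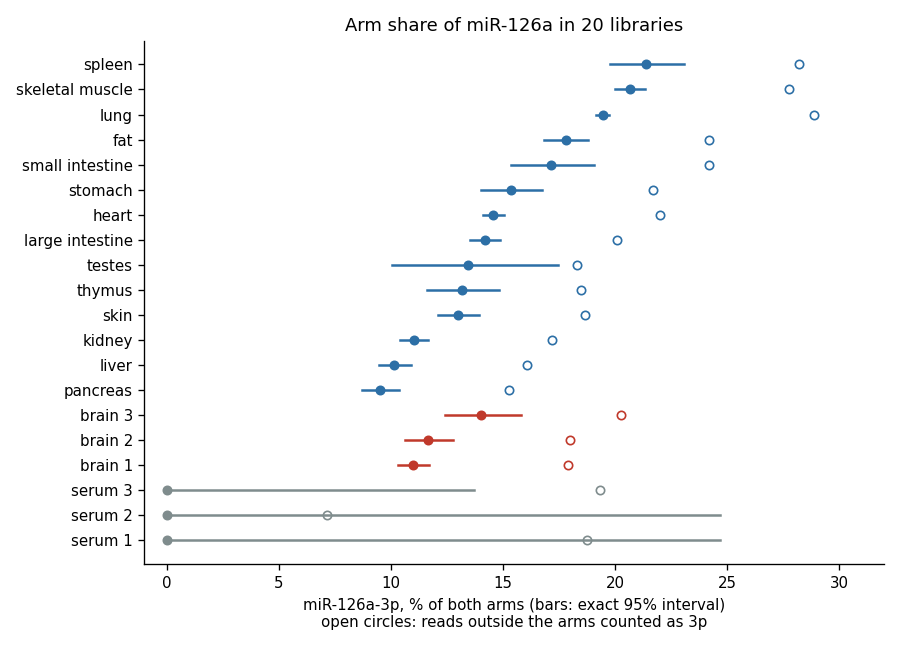
Share of miR-126a arm reads that were 3p in each of 20 libraries (grey serum, red brain, blue pools), with exact binomial 95% intervals. Open circles show the share if the precursor reads outside both arms had been 3p. Serum is at 0% in the 3 libraries and the pools at 9.53% to 21.4%, but the open circles of serum overlap with those of the tissues.

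Other miRNAs with known roles in blood vessels moved in brain more often downward than upward. Of 28 such precursors chosen for their roles, 24 were tested against the pools, with 2 called higher and 12 lower in brain, beside 24.1% and 18.6% of all precursors. Their median log2 fold change was −2.03, against 0.17 over all 295 tested. The lower calls included mir-17-1, mir-18a, mir-19a, mir-19b-1, mir-20a and mir-92a-1, which belong to the same cluster, and the pair mir-143 and mir-145. Calls within a cluster are not independent of each other, so the 12 lower calls are not 12 separate results. In the hemispheres mir-18a had 2, 2 and 0 reads and mir-19a had 9, 3 and 1. Both passed the count minimum through the pools alone. mir-132, which is known from both neurons and sprouting vessels, was higher at 5.69 (adjusted p = 1.2e-05 from edgeR). The other higher call was mir-218a-2, at 2.38 (adjusted p = 0.038 from edgeR). mir-10a was lower at −4.97 (adjusted p = 0.0061 from edgeR), and the smooth muscle miRNA mir-145 at −4.75 (adjusted p = 0.015 from edgeR). Its cluster partner mir-143 was also called, at −4.38. Summed over mir-143 and mir-145, smooth muscle miRNA stood at 21691 to 26199 RPM in brain against 48957 to 613588 RPM in the pools. Against serum, 5 of 20 were called higher and 8 lower in brain, beside 44.7% and 18.7% of all tested, with a median of −1.04 against 2.15. Among those called higher, mir-218a-2 had 0 reads in each serum library and mir-132 had 0, 1 and 0. Both passed the count minimum through brain alone and had to differ, so their calls are no result. Precursors that entered in that way are also among all those tested. In serum against the pools, 2 of 24 were called higher and 5 lower, beside 5.93% and 16.9% of all tested, with a median of −1.65 against −2.18. let-7f-1, at −6.25, and mir-143, at −3.87, were among those called lower. In brain against the pools the list had 4 higher and 7 lower calls with library totals, and 1 and 19 with DESeq2. The calls over all precursors, given above, moved the same way, so these counts follow the scaling too. The median of the list was −0.90 against 1.19 over all tested with library totals, and −2.67 against −0.44 with DESeq2. In serum against the pools the balance turned with library totals, to 4 higher and 1 lower, as did that over all precursors given above. The median of the list there was −0.17 against −0.83 over all tested.

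mir-126 and mir-223 are also found in platelets, and organs hold blood, so blood cell markers are given beside these levels. The red cell miRNAs mir-451 and mir-144 together were at 4.15 to 21.03 RPM in brain, 2.44 to 12816 RPM in the pools, with spleen far above the rest, and 2210 to 4288 RPM in serum. After spleen the highest pool was lung at 343 RPM. The leukocyte and platelet miRNAs mir-142, mir-223 and mir-150 summed to 237 to 403 RPM in brain, 330 to 65613 RPM in the pools, highest in thymus and spleen, and 7089 to 14029 RPM in serum. Of these, mir-142 was called lower in brain than in the pools, at −6.91, while mir-150, at −1.87 (adjusted p = 0.186 from edgeR), was not called. mir-223 was also called lower, at −5.59. It had 3, 1 and 0 reads in the hemispheres and passed the count minimum through the pools alone, so its call is no result. mir-451 and mir-144 were not called. Of all precursors tested, 18.6% were called lower in brain. The part of these blood cell miRNAs in the levels of mir-126a was not tested.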

How the data were processed

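Small RNA of 20 rat libraries had been prepared with the TruSeq Small RNA kit and run on a MiSeq. The authors trimmed base calls of phred scores under 20, aligned the reads with Bowtie (rat genome Rn5) and counted them on the miRBase and RefSeq annotations. The submitters' processing notes also name Partek. Versions, and whether strand or read length limited an assignment, are not given in the sources used here. The values the authors deposited are estimated counts per miRNA (expected counts), made from the aligned reads without normalization, in 3 stacked lists (RefSeq, miRBase precursors, miRBase mature) of the same reads.

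RPM was computed within each list. For tests the estimated counts were rounded to whole numbers and fitted in edgeR 4.0.16 (R 4.3.3) with TMM, keeping miRNAs with 10 or more counts in 3 or more libraries, with Benjamini-Hochberg adjustment over the whole list and a threshold of 0.05. The SE was taken from the fold change and the F statistic. Alternatives were DESeq2 1.42.0, other scalings and filters, a replicate block, and each library left out. Centred levels used log2 after adding 1 RPM. Arm shares and ratios were tested by exact two-sided permutation over libraries. The ratio of mir-222 to mir-221 could not be tested in serum, which had 0 or 1 reads of each. The edgeR step was tested on simulated counts. Also used were SciPy 1.17.1, pandas 2.3.3 and NumPy 2.4.6 under Python 3.11.15, with figures drawn in Matplotlib 3.10.9.

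Groups came from the labels. Named miRNAs are all members and arms, the 3 precursors whose tissue profile was most like each, and up to 3 called members of each vessel or cell type list with the largest change. Some further called members of the vessel list are named because they share a cluster or went the other way. Of the vessel list, mir-322 and mir-503 were not found under those exact names. The members and lists were chosen with earlier results of these data known. Serum libraries held 7556 to 10862 precursor reads. The replicates are separate animals only as far as the labels number them, so p-values measure the spread between these libraries.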

Additional observations from a re-analysis of the deposited data

How the results depend on the processing

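Serum depth is a limit, since 3 serum reads equal 276 to 397 RPM, and a pool has no replicate. With 10 or more counts required in each library, so that fewer miRNAs were tested, the numbers called fell: brain against the pools to 32 precursors (from 126) and 29 mature miRNAs (from 128), brain against serum to 46 (from 149) and 26 (from 142), and serum against the pools to 30 (from 54) and 14 (from 60). With library totals alone, serum against the pools gave 37 mature miRNAs. Leaving out 1 library at a time gave 38 to 148 precursors and 39 to 140 mature miRNAs for brain against the pools, 55 to 141 and 36 to 128 for brain against serum, and 30 to 62 and 35 to 61 for serum against the pools. The low ends came without a hemisphere or a serum library. Without a hemisphere, 68 precursors were tested for brain against serum in place of 235.

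For mir-126a, brain against the pools was −1.24 with library totals (adjusted p = 0.220 from edgeR), −2.08 with RLE, −1.71 with 10 counts in each library, and −2.54 to −2.10 with a library left out. For mir-221 it was 2.38 with library totals and 1.70 with RLE. For mir-222 it was 1.00 with DESeq2, 1.35 with no count minimum, and 1.48 to 1.81 with a library left out. Serum against the pools was −2.57 for mir-126a with library totals and −4.50 to −3.41 with a library left out, and −10.00 to −2.50 for mir-222. The values of mir-222 rest on at most 1 serum read. The cause of these changes was not tested.

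The log2 level of mir-126a in heart above the tissue median, 1.82, became 2.55 with TMM, 2.34 with DESeq2 size factors, 2.16 without the library labelled pancreas and 1.98 without mir-143 in the totals. That of mir-221 in brain, 3.14, became 2.14, 1.32, 2.92 and 2.92, and 2.99 with 10 RPM added. That of mir-222 in brain, 3.23, became 2.40, 1.39, 3.05 and 3.07. The total without mir-143 was chosen after seeing the data, as were the fits without both the pancreas and stomach pools, arm shares without the pancreas and liver pools, and levels without each hemisphere. The mean log2 ratio of mir-222 to mir-221 in brain reversed to −5.15 with mature 3p counts. The 3p share of mir-126a in serum minus pools moved from −15.1 to −6.42 percentage points with reads outside the arms counted as 3p. The 3p share of mir-221 in brain minus pools, −0.03 percentage points, became 0.27 on the log2 scale of 3p over 5p and −1.05 to 0.42 with a library left out.

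The replicate numbers of brain and serum do not pair the libraries by any label, and deviations of like-numbered libraries correlated at 0.10, −0.14 and −0.03 over 73 precursors. With the replicate block 141 precursors (of 149 without it) and 125 mature miRNAs (of 142) were called, and mir-126a was at 1.29 and kept its call. mir-221, at 3.91, and mir-222, at 4.74, had to differ, so the block says nothing of their stability. No paired analysis of the mir-222 to mir-221 ratio was possible because serum held 0 or 1 reads of each.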
